A study of Mus musculus with 27 samples.

Results

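The genes described here are 10 transcripts of the ATF4 arm of the integrated stress response and of serine and glycine synthesis, namely Atf4, Ddit3, Trib3, Asns, Chac1, Slc7a11, Phgdh, Psat1, Psph and Shmt2. They were taken from a list of names. The rule itself uses no measured value, although the list was drawn up with earlier results of these data known. All 10 were found among the 23295 genes of the FPKM table of parental cells and among the 24247 genes of the table of shRNA-infected cells, and all 10 passed the filter on low values in both. FPKM counts sequenced fragments scaled to transcript length and to the depth of the library, so that levels of different genes can be set beside each other.

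The cells were NMuMG, a normal epithelial line of the mouse mammary gland, which undergoes an epithelial-mesenchymal transition (EMT) when given TGF-β. Parental NMuMG cells were untreated or received 1 to 5 ng/ml TGF-β for 8 or 24 h, with 2 RNA-seq libraries per time. The same times, again with 2 libraries each, were measured in cells infected with lentivirus carrying an irrelevant control shRNA (control cells) or an shRNA against lamin B1 (KD cells), both selected with puromycin, so that the control cells share the infection and the drug with the KD cells. Lamin B1 ChIP-seq on chromatin enriched for euchromatin and ATAC-seq had 1 library per time. The knockdown is a partial loss in an infected population, and the parental cells were neither infected nor selected.

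Lmnb1, the targeted transcript, was lower in each KD library than in each control library of its time. Its level was 9.01 and 9.27 FPKM in untreated KD cells against 29.2 and 36.5 FPKM in untreated control cells, 7.79 and 8.14 against 32.8 and 32.1 at 8 h, and 4.37 and 7.52 against 18.4 and 17.9 at 24 h. Of 7 epithelial markers, 6 reached 1 FPKM in at least 1 library of each table. By the same count, 0 of 3 endothelial, 0 of 3 adipocyte, 0 of 3 fibroblast and 1 of 3 leukocyte markers did so in either table. Cdh1, Krt8, Krt18 and Krt19 reached it in every library, whereas Epcam and Cldn4 reached it only in treated cells. In parental cells Cdh1 fell from a mean of 116 to 40.3 FPKM by 24 h, and Krt19 from 993 to 62.3 FPKM. The other epithelial markers did not share this fall. Krt8 went from 2027 to 2131 FPKM, Krt18 from 1748 to 2088 FPKM and Cldn4 from 0.120 to 8.44 FPKM. Epcam stood at 0.351, 1.04 and 0.175 FPKM at 0, 8 and 24 h, and Cldn7 stayed near 0. The steps between low FPKM values showed that the deepest library held 1.25 times the mapped reads of the shallowest in the parental table and 1.42 times in the shRNA table. The absolute depth is unknown. Replicate libraries correlated across genes at r = 0.990 to 0.994 in the parental table and 0.983 to 0.993 in the shRNA table.

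ATF4 is a transcription factor that is translated when kinases such as PERK and GCN2 phosphorylate the initiation factor eIF2alpha, in response to unfolded protein or to a lack of amino acids. It drives genes of amino acid uptake and synthesis, and with CHOP, the product of Ddit3, genes of prolonged stress. Much of the control of ATF4 and of CHOP is exerted on translation and on the protein, which RNA levels do not report. PHGDH, PSAT1 and PSPH make serine from the glycolytic intermediate 3-phosphoglycerate in 3 steps, and SHMT2 converts serine to glycine in mitochondria, passing a carbon unit to folate.

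In untreated parental cells the first enzymes of serine synthesis, Psat1 and Phgdh, were the most abundant of the 10 transcripts, while Psph was sixth. Psat1 stood at 280.2 and 273 FPKM and Phgdh at 248 and 236 FPKM, ahead of Atf4 at 204 and 194 FPKM. These 3 did not overlap one another. Shmt2 followed at 75.8 and 72.8 FPKM, Asns at 61.1 and 62.1, Psph at 38.3 and 34.3 and Ddit3 at 16.7 and 15.3. Trib3 at 6.74 and 6.28 FPKM and Chac1 at 7.31 and 5.38 FPKM overlapped, and Slc7a11 was lowest at 1.62 and 1.99 FPKM.

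The promoters of the 10 genes, as RefSeq gives them on GRCm38.p6 (250 bases before to 50 bases after each start site), were searched on both strands for the C/EBP-ATF response element, spelled TGATGNAA, to which ATF4 binds together with C/EBP proteins. It was found in 4 of 10 members, Asns, Chac1, Slc7a11 and Trib3, and in 4.51% of 27025 genes and 2.62% of the 8446 of these that passed the expression filter. The 4 are shown because they carry these letters, with the match in capitals. All windows matched mm9 exactly and once, and positions are counted from the start site as 0.

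Asns (mm9 chr6:7643210-7643459, minus strand, bases -250 to -1): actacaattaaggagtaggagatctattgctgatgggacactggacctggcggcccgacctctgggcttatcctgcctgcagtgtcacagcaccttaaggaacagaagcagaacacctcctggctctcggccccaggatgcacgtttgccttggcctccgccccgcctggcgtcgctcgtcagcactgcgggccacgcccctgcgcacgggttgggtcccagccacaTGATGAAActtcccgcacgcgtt
Chac1 (mm9 chr2:119176728-119176977, plus strand, bases -250 to -1): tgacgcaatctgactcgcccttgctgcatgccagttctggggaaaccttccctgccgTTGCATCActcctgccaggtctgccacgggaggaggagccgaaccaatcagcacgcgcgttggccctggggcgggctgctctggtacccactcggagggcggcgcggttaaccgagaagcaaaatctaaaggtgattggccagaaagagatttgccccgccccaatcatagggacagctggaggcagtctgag
Slc7a11 (mm9 chr3:50247536-50247785, minus strand, bases -250 to -1): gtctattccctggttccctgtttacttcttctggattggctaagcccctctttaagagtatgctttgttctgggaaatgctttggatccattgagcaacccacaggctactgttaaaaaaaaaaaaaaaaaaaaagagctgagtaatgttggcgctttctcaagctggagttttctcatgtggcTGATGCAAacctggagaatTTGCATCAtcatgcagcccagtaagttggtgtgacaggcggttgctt
Trib3 (mm9 chr2:152169765-152169794, minus strand, bases 2 to 31, within the transcribed part): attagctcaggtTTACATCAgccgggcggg

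The match lay at -23 to -16 in Asns, at -193 to -186 in Chac1 and at 14 to 21 in Trib3, while Slc7a11 held a pair of matches in opposite orientation at -66 to -59 and -47 to -40. None of these matches overlapped a match to the other motifs searched. The windows of Phgdh and Psat1, the members with the largest falls on the log2(FPKM + 1) scale after 24 h of TGF-β, held no TGATGNAA. By the ratio of the 24 h mean to the untreated mean in parental cells, Slc7a11 (0.302) fell further than Phgdh (0.517). The windows of Phgdh and Psat1 are shown with a motif that both contain, the CCAAT box (letters CCAAT), in capitals.

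Phgdh (mm9 chr3:98143893-98144142, minus strand, bases -250 to -1): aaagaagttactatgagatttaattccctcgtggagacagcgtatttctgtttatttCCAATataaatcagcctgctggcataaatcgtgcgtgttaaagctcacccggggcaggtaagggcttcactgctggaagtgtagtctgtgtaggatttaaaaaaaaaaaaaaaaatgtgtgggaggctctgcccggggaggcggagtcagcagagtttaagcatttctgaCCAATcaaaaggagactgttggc
Psat1 (mm9 chr19:15999550-15999799, minus strand, bases -250 to -1 of its upstream RefSeq start): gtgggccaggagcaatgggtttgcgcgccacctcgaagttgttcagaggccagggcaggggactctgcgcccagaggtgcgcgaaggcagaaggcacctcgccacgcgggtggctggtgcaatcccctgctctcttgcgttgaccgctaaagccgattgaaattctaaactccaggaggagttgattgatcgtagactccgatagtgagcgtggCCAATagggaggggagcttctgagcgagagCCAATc

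CCAAT occurred in 7 of 10 members, in 41.1% of the 27025 genes and in 43.7% of the expressed ones. It lay at -193 to -189 and -23 to -19 in Phgdh. In Psat1 it lay at -36 to -32, at -6 to -2 and at 23 to 27, the last outside the stretch shown. The GC box GGGCGG was present in 5 of 10 members, against 38.2% of all and 70.5% of expressed genes, and the antioxidant response element TGACNNNGC in 3 of 10, against 14.0% and 17.2%. A match is a run of letters and does not show that a factor binds.

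The question of the treated and untreated groups was how these transcripts move during EMT. In parental cells the 4 serine and glycine enzymes fell together at 8 and at 24 h, and Psat1 fell furthest of the 10 members on the scale used for the tests. Differences are given on the log2(FPKM + 1) scale with standard errors and Benjamini-Hochberg adjusted p-values from limma, fitted over all 11309 genes of the parental table that reached 1 FPKM in at least 2 libraries and over 11450 genes of the shRNA table. A gene was called at an adjusted p below 0.05. In these bulk samples, less RNA per cell and fewer cells expressing a gene cannot be told apart.

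Psat1 (mm9 chr19:15979168-16021827, minus strand) encodes phosphoserine aminotransferase, the second step of serine synthesis. Its level in parental cells went from 280.2 and 273 FPKM to 122 and 135 at 8 h, then reached 70.9 and 69.0 by 24 h. The 3 times did not overlap and followed each other downwards. The log2 difference from untreated cells was -1.10 ± 0.05 (SE; adjusted p = 3.04e-05) at 8 h and -1.97 ± 0.05 (adjusted p = 5.50e-07) at 24 h, when the mean stood at 0.253 of the untreated mean.

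The infected cells followed the same course. In control cells Psat1 went from 234 and 280.2 FPKM to 110.3 and 110.3 FPKM and then to 67.5 and 65.6 FPKM, and in KD cells from 242 and 260.3 FPKM to 83.7 and 88.6 FPKM and then to 58.8 and 65.7 FPKM. Every treated library lay below every untreated library of its line. The differences were -1.21 ± 0.08 and -1.93 ± 0.08 in control cells and -1.53 ± 0.08 and -2.00 ± 0.08 in KD cells, at 8 and 24 h.

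Phgdh (mm9 chr3:98117093-98143913, minus strand), the first and committed step of the pathway, fell in every line as well. In parental cells it read 248 and 236 FPKM before treatment, 160.3 and 173 at 8 h, then 128 and 122 by 24 h, with differences of -0.54 ± 0.05 and -0.95 ± 0.05. The fall in control cells ran from 297 and 326 FPKM over 171 and 173 to 109 and 113 FPKM, or -0.86 ± 0.06 and -1.48 ± 0.06. KD cells went from 275 and 286 FPKM over 139 and 142 to 105 and 115 FPKM, or -0.99 ± 0.06 and -1.34 ± 0.06. None of these libraries overlapped between times within a line.

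Shmt2 (mm9 chr10:126954195-126959491, minus strand) and Psph (mm9 chr5:130271434-130293129, minus strand), the phosphatase of the last step of serine synthesis, fell less. Shmt2 went from 75.8 and 72.8 FPKM to 56.3 and 56.9 FPKM and then to 50.3 and 49.3 FPKM in parental cells, with differences of -0.39 ± 0.04 and -0.57 ± 0.04. Psph went from 38.3 and 34.3 FPKM to 27.2 and 26.7 FPKM and stayed at 25.4 and 27.9 FPKM, with differences of -0.41 ± 0.07 and -0.43 ± 0.07. Both were called lower at both times in all 3 lines. In KD cells the 24 h fall of Psph was -0.29 ± 0.07 (adjusted p = 0.00453), and it lost its call when the libraries were rescaled to an equal median (adjusted p = 0.0585).

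**Figure D1:**
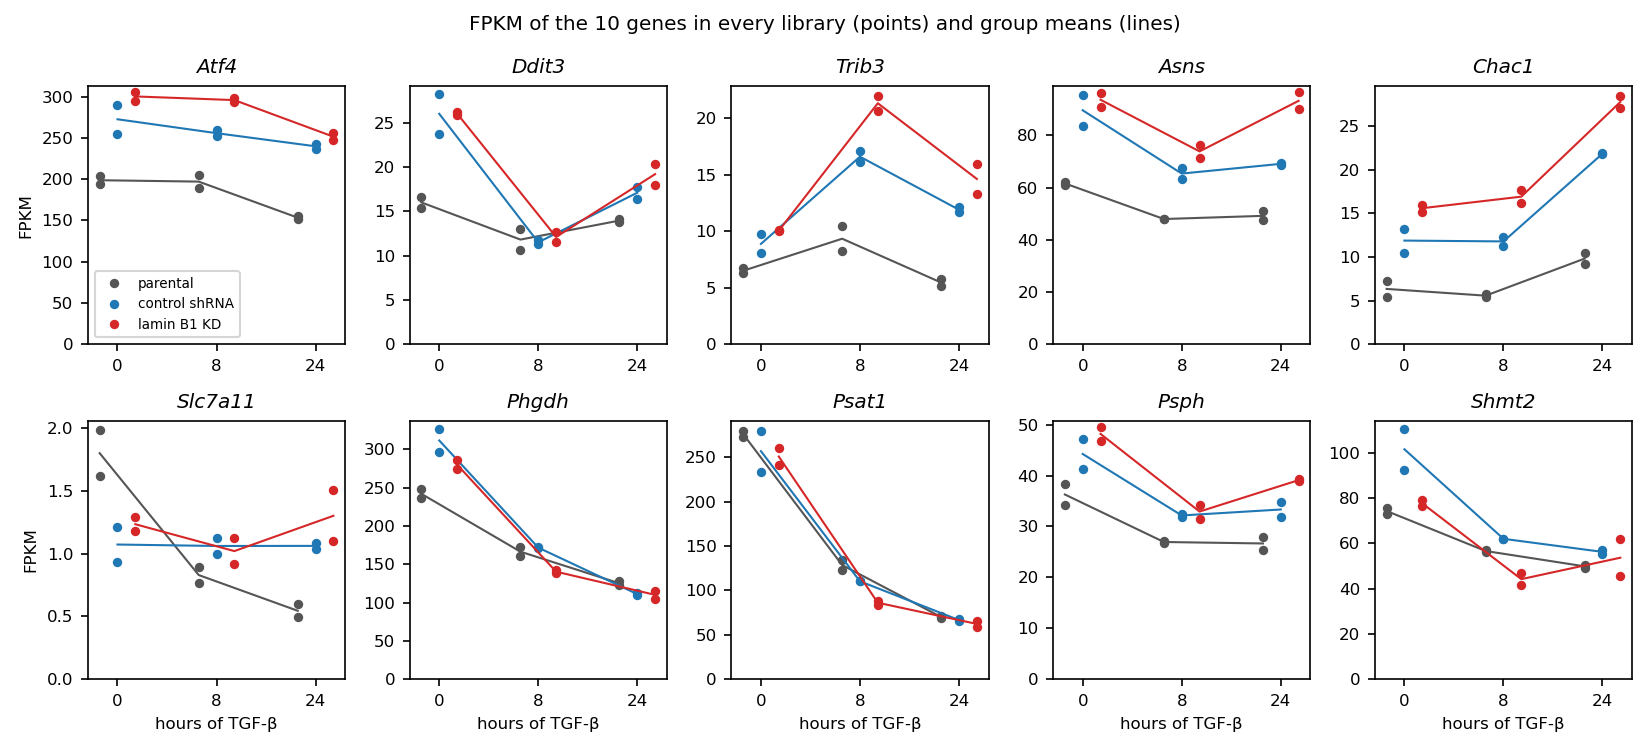
FPKM (vertical axis, from 0) of the 10 genes against hours of TGF-β, with 1 point per library, lines through the group means, and colours for parental, control shRNA and lamin B1 KD cells. Psat1 falls from between 234 and 280.2 FPKM in the 6 untreated libraries to between 58.8 and 70.9 FPKM in the 6 libraries of 24 h, whereas Trib3 is highest at 8 h in each line and Chac1 highest at 24 h.

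Among the regulators, Atf4 RNA stayed level at 8 h and was somewhat lower at 24 h, while Ddit3 and Trib3 moved in opposite directions at 8 h. Atf4 (mm9 chr15:80085614-80087970, plus strand) read 204 and 194 FPKM in untreated parental cells, 205 and 189.7 after 8 h, then 152 and 155 after 24 h. The 8 h libraries overlapped the untreated ones (-0.01 ± 0.05, adjusted p = 0.843), and those of 24 h lay below them (-0.37 ± 0.05, adjusted p = 0.000412).

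In the infected cells the 24 h difference of Atf4 was smaller. Control cells went from 255 and 290.0 FPKM to 243 and 237 FPKM (-0.18 ± 0.06, adjusted p = 0.0183) and KD cells from 295 and 305 FPKM to 247 and 256 FPKM (-0.25 ± 0.06, adjusted p = 0.00314). The median of all genes was itself at -0.13 and -0.10 in these comparisons. With the libraries rescaled to an equal median the call was lost in control cells (adjusted p = 0.565) and in KD cells (adjusted p = 0.0824), and in control cells it was also lost under quantile normalization (0.709), in a fit of only the compared groups (0.0823), without the second control library of 24 h (0.0902) and without the second untreated control library (0.1).

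Ddit3 (mm9 chr10:126727830-126733344, plus strand), which encodes the stress factor CHOP, was lowest at 8 h in every line. Control cells held 28.3 and 23.7 FPKM before treatment, 11.3 and 11.7 after 8 h, then 16.4 and 17.8 after 24 h, with differences of -1.11 ± 0.09 and -0.57 ± 0.09. KD cells held 26.2 and 25.9 FPKM, then 11.5 and 12.7, then 18.0 and 20.4 FPKM, with differences of -1.05 ± 0.09 and -0.42 ± 0.09. Parental cells moved less, from 16.7 and 15.3 FPKM to 10.6 and 12.97 FPKM (-0.41 ± 0.09, adjusted p = 0.00686) and to 14.2 and 13.8 FPKM at 24 h (-0.18 ± 0.09, adjusted p = 0.101). The 8 h call in parental cells was lost without 1 of the untreated libraries (adjusted p = 0.0527). Ddit3 overlaps Mars, a tRNA synthetase gene on the opposite strand, and reads of the overlap may be shared. The study describes strand-specific RNA-seq profiles, but the strand setting behind the FPKM values is not given in the sources used here.

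Trib3 (mm9 chr2:152163158-152169768, minus strand), a pseudokinase that is a target of ATF4 and CHOP and restrains both, was highest at 8 h in every line. It rose from 6.74 and 6.28 FPKM to 10.4 and 8.26 FPKM in parental cells (0.46 ± 0.10, adjusted p = 0.00915), from 8.04 and 9.74 to 16.1 and 17.1 FPKM in control cells (0.84 ± 0.10) and from 10.0 and 10.1 to 20.7 and 22.0 FPKM in KD cells (1.01 ± 0.10). At 24 h it was still above the untreated level in control cells, at 11.7 and 12.1 FPKM (0.39 ± 0.10, adjusted p = 0.00558), and in KD cells, at 13.3 and 16.0 FPKM (0.50 ± 0.10, adjusted p = 0.00141). In parental cells it stood at 5.75 and 5.18 FPKM at 24 h, below both untreated libraries, but the difference did not pass the test (-0.22 ± 0.10, adjusted p = 0.1). Without 1 of the untreated libraries the 8 h call in parental cells was lost (adjusted p = 0.0591), and without the first library of 8 h the difference was 0.30.

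Of the genes of amino acid and glutathione supply, Asns was called lower in 5 of the 6 comparisons with untreated cells, Chac1 rose at 24 h in each line, and Slc7a11 was called lower in parental cells. Asns (mm9 chr6:7625169-7643254, minus strand), which makes asparagine from aspartate, went in parental cells from 61.1 and 62.1 FPKM to 47.9 and 48.1 after 8 h, with 50.9 and 47.4 after 24 h (-0.35 ± 0.04 and -0.32 ± 0.04). Control cells went from 83.6 and 95.6 FPKM to 67.5 and 63.3 FPKM and to 68.6 and 69.6 FPKM (-0.45 ± 0.07 and -0.37 ± 0.07). In KD cells it was lower at 8 h, at 71.5 and 76.2 FPKM against 90.9 and 96.4 FPKM (-0.34 ± 0.07), and at 24 h, at 90.0 and 96.5 FPKM, it overlapped the untreated libraries (-0.01 ± 0.07).

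Chac1 (mm9 chr2:119176965-119180117, plus strand), which degrades glutathione, had no call at 8 h in any line and rose by 24 h. Its 8 h differences were -0.15 ± 0.12 in parental, -0.003 ± 0.09 in control and 0.11 ± 0.09 in KD cells. Chac1 read 7.31 and 5.38 FPKM, then 5.78 and 5.36, then 10.4 and 9.21 FPKM in parental cells, with a difference of 0.57 ± 0.12 at 24 h (adjusted p = 0.00499), or 0.38 without the second untreated library. The 24 h rise was 0.83 ± 0.09 in control cells, from 10.5 and 13.3 to 21.9 and 21.8 FPKM, and 0.79 ± 0.09 in KD cells, from 15.2 and 16.0 to 27.1 and 28.5 FPKM. Every 24 h library lay above every untreated and 8 h library of its line.

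Slc7a11 (mm9 chr3:50168858-50247535, minus strand), the cystine carrier, was scarce. In parental cells it fell from 1.62 and 1.99 FPKM to 0.769 and 0.891 FPKM (-0.61 ± 0.09) and 0.598 and 0.492 FPKM (-0.86 ± 0.09), and there it passed the filter on low values through the untreated libraries alone. The calls held without that filter (adjusted p = 0.00626 and 0.00105). With a pseudocount of 0.1 in place of 1 the differences were -1.03 and -1.56, so that their size depends on that choice. In the infected cells it lay between 0.915 and 1.51 FPKM in all 12 libraries, and its differences from untreated cells ran from -0.15 to 0.04 with no call. The parental and the shRNA tables were normalized separately, and the difference between them was not tested.

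In number, 8 of the 10 members were called in parental cells at 8 h, 1 of them higher and 7 lower. Of all genes tested, 54.5% were called there, 22.4% higher and 32.1% lower. The counts were the same after 24 h, where 70.5% of all genes were called, 33.4% higher and 37.1% lower. Leaving aside Slc7a11, which entered these comparisons through the group in which it was high, 7 of 9 members were called at each time, 1 higher and 6 lower. Control cells had 7 members called after 8 h, 1 higher and 6 lower, against 64.3% of all genes (19.4% higher, 44.9% lower). After 24 h they had 9, of which 2 were higher and 7 lower, against 70.7% (25.5% higher, 45.1% lower). KD cells had 7 after 8 h, 1 higher and 6 lower, against 67.8% (23% higher, 44.8% lower), and 8 after 24 h, of which 2 were higher and 6 lower, against 71.9% (28.6% higher, 43.3% lower). The members' median difference at 8 and 24 h was -0.40 and -0.40 in parental cells, -0.45 and -0.38 in control cells and -0.44 and -0.27 in KD cells, beside all-gene medians of -0.05 and -0.02, -0.14 and -0.13, and -0.13 and -0.10.

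In the infected cells the all-gene shift touched the split of calls. Under quantile normalization the share of called genes that were higher moved from 30.2% to 46.0% in control cells at 8 h, from 36.1% to 49.99% at 24 h, from 33.9% to 46.0% in KD cells at 8 h and from 39.8% to 50.1% at 24 h. After median rescaling it moved from 41.1% to 51.8% in parental cells at 8 h. No member that was called changed direction under any alternative.

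**Figure D2:**
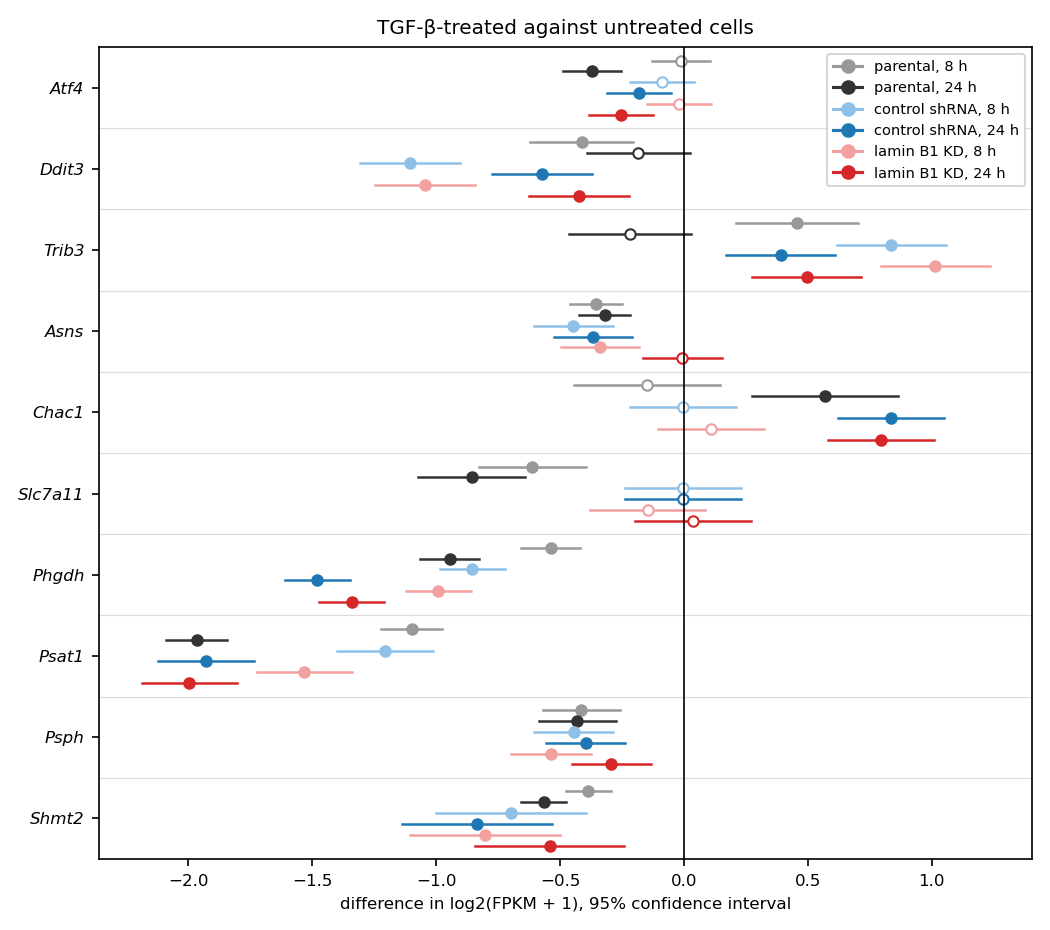
Differences in log2(FPKM + 1) (horizontal axis) of the 10 genes after 8 or 24 h of TGF-β against untreated cells of the same line, with 95% confidence intervals from limma. Filled points are called at an adjusted p below 0.05. Psat1 lies between -2.00 and -1.10 in all 6 comparisons, and Trib3 at 8 h lies between 0.46 and 1.01.

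A comparison of 24 h with 8 h, added after the values had been seen, showed which members moved between the treated times. Phgdh (-0.41, -0.62 and -0.35), Psat1 (-0.87, -0.72 and -0.46) and Trib3 (-0.67, -0.45 and -0.52) were called lower at 24 h than at 8 h in parental, control and KD cells, respectively. Chac1 was called higher in all 3 (0.72, 0.84 and 0.68). Ddit3 was higher at 24 h in control cells (0.53 ± 0.09) and KD cells (0.62 ± 0.09), and in parental cells its libraries were above those of 8 h without a call (0.23 ± 0.09, adjusted p = 0.0651). Atf4 was called lower in parental (-0.36 ± 0.05, adjusted p = 0.00101) and KD cells (-0.23 ± 0.06, adjusted p = 0.00848), with no call in control cells (adjusted p = 0.21), and Shmt2 was called lower in parental cells (-0.18 ± 0.04, adjusted p = 0.00703), with none in control (0.416) or KD cells (0.129). Asns (0.33 ± 0.07) and Psph (0.24 ± 0.07) were called higher at 24 h in KD cells alone, and the call of Psph was lost without the first KD library of 8 h (adjusted p = 0.122). Of the members, 1 was called higher and 5 lower in parental cells, 2 and 3 in control cells, and 4 and 4 in KD cells. Over all genes, 51.8% (27.7% higher, 24% lower), 49.7% (25.2% and 24.5%) and 51.8% (28% and 23.8%) were called.

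The comparison of KD with control cells asks whether less lamin B1 alters these transcripts before and during EMT. Chac1 was higher in KD cells at all 3 times. At 8 h, Atf4, Trib3 and Chac1 were higher and Phgdh, Psat1 and Shmt2 lower, and at 24 h Asns, Chac1 and Psph were higher. The differences were below 0.5 on the log2 scale, against a fall of Lmnb1 of -1.73 ± 0.18, -1.90 ± 0.18 and -1.50 ± 0.18 at 0, 8 and 24 h.

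Chac1 read 15.2 and 16.0 FPKM in untreated KD cells against 10.5 and 13.3 FPKM in control cells, 16.2 and 17.7 against 11.3 and 12.3 FPKM at 8 h, and 27.1 and 28.5 against 21.9 and 21.8 FPKM at 24 h. At each time both KD libraries lay above both control libraries. The differences were 0.37 ± 0.09 (adjusted p = 0.026), 0.49 ± 0.09 (0.00471) and 0.33 ± 0.09 (0.0302). Chac1 was the only member called in untreated cells, where 19.7% of all genes were called (10.6% higher, 9.09% lower). That call was lost in a fit of the compared groups alone (adjusted p = 0.132), without the first (0.0962) or second (0.142) KD library and without the first control library (0.0673).

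At 8 h, 6 of the 10 members were called, 3 in each direction, where 35.8% of all genes were called (19.3% higher, 16.5% lower). Atf4 stood at 293 and 299 FPKM in KD cells against 252 and 259.8 FPKM in control cells (0.21 ± 0.06, adjusted p = 0.0208), and Trib3 at 20.7 and 22.0 against 16.1 and 17.1 FPKM (0.34 ± 0.10, adjusted p = 0.0235). Phgdh, Psat1 and Shmt2 lay the other way, and Psph overlapped between the groups (0.03 ± 0.07, adjusted p = 0.758). Phgdh stood at 139 and 142 FPKM against 171 and 173 FPKM (-0.29 ± 0.06, adjusted p = 0.00535), Psat1 at 83.7 and 88.6 against 110.3 and 110.3 FPKM (-0.35 ± 0.08, adjusted p = 0.0124) and Shmt2 at 41.4 and 46.9 against 62.0 and 61.9 FPKM (-0.48 ± 0.13, adjusted p = 0.0218).

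At 8 h both KD libraries lay above both control libraries in 4 of the 10 members and below them in 3, the 6 called genes among them. The share of all genes that separated in this way was not counted. Leaving out 1 library left 2 calls without the first KD, the first control or the second control library of 8 h, and 4 without the second KD library. Chac1 and Phgdh kept their calls in each of these fits. Atf4 and Trib3 lost theirs in all 4 (adjusted p = 0.0608 to 0.124), and Psat1 and Shmt2 theirs in all but the fit without the second KD library (adjusted p = 0.0594 to 0.126).

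At 24 h Phgdh, Psat1 and Shmt2 had no call. Phgdh was at 105 and 115 FPKM in KD against 109 and 113 FPKM in control cells (-0.01, 95% confidence interval -0.15 to 0.12), Psat1 differed by -0.10 (-0.29 to 0.10) and Shmt2 by -0.08 (-0.38 to 0.22). The KD libraries of Shmt2 disagreed, at 45.4 and 61.8 FPKM, and lay on either side of the control libraries at 57.1 and 55.3 FPKM. Asns was higher, at 90.0 and 96.5 FPKM against 68.6 and 69.6 FPKM (0.43 ± 0.07, adjusted p = 0.00333), and this call held in every alternative. Psph was at 39.3 and 38.9 against 31.9 and 34.8 FPKM (0.23 ± 0.07, adjusted p = 0.0422).

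In all, 3 members were called at 24 h, none lower, where 28.3% of all genes were called (16.8% higher, 11.5% lower). The calls of Chac1 and Psph were lost without the filter on low values (adjusted p = 0.0575 and 0.072), under quantile normalization (0.0574 and 0.0891) and with an equal median (0.0546 and 0.086), which left 1 member. Leaving out 1 library left 3 calls without the first KD library of 24 h and 1 without the second KD, the first control or the second control library. In each of these last 3 fits Asns was the call that remained. With the replicate number as a block there were 4 calls, Trib3 being added (adjusted p = 0.0256).

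**Figure D3:**
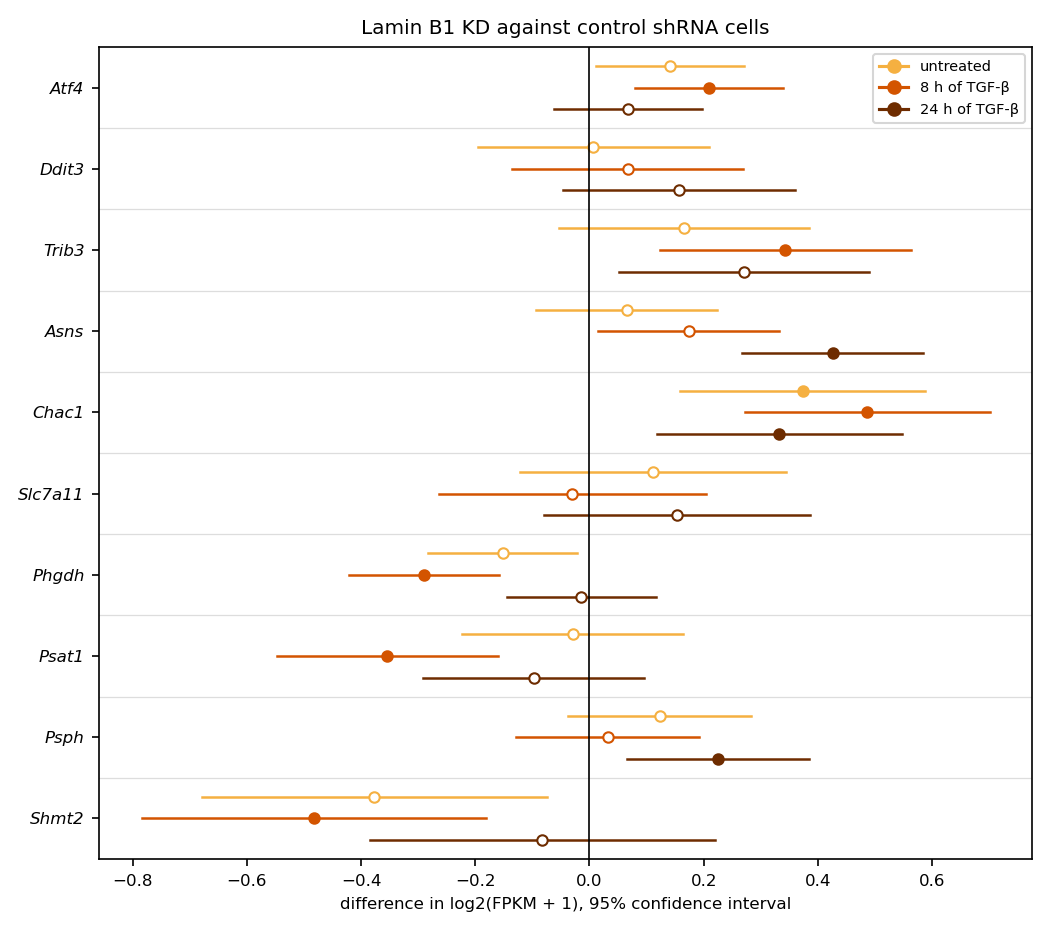
Differences in log2(FPKM + 1) between lamin B1 KD and control shRNA cells (horizontal axis) for the 10 genes in untreated cells and after 8 and 24 h of TGF-β, with 95% confidence intervals from limma. Filled points are called at an adjusted p below 0.05. Chac1 is called at all 3 times (0.37, 0.49 and 0.33), and Phgdh, Psat1 and Shmt2 lie below 0 with a call at 8 h.

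Whether the TGF-β response itself differed between KD and control cells was tested by the interaction of the shRNA with time. By limma, 0 of 10 members were called at 8 h and 0 at 24 h, where 4.06% (2.45% higher, 1.61% lower) and 4.72% (2.73% higher, 1.98% lower) of all genes were. Of the 11450 genes tested, 2430 at 8 h and 2713 at 24 h had an unadjusted p below 0.05. Among the 10 members 1 did at each time, which is a smaller share. No other tool was run. At 8 h this was Psat1, with a difference between the responses of -0.32 (95% confidence interval -0.60 to -0.05, adjusted p = 0.169). At 24 h it was Asns, with 0.36 (0.14 to 0.58, adjusted p = 0.0765), its untreated values being 90.9 and 96.4 FPKM in KD and 83.6 and 95.6 FPKM in control cells. Single libraries decided these calls. Psat1 was called at 8 h without the second untreated control library (adjusted p = 0.0235), and Asns at 24 h without the first KD library of 24 h (0.0278) or the first untreated control library (0.0318). Without that KD library, Shmt2 was called at 24 h as well (0.0283).

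Related genes were grouped in 6 lists. The endoplasmic reticulum (ER) chaperones and the genes of the IRE1 and ATF6 branches, which sense unfolded protein apart from PERK, mostly rose with TGF-β in parental cells, while tRNA synthetases, folate enzymes and other ATF4 targets were called lower more often than higher. After 8 h the ER list had 14 of 18 tested genes higher and 1 lower (median difference 0.27), and after 24 h it had 10 higher with 3 lower (0.19), where 22.4% and 33.4% of all genes were called higher. Xbp1, the factor of the IRE1 branch, rose at 8 h from a mean of 42.5 to 68.0 FPKM (0.66 ± 0.09). Dnajb9, an ER co-chaperone, rose by 0.42 ± 0.07 at 8 h and 0.66 ± 0.07 at 24 h, and Hyou1 by 0.37 ± 0.07 at 8 h. Pdia4, a disulfide isomerase, was higher at 24 h (0.43 ± 0.04), and Sdf2l1 was lower (-0.42 ± 0.05).

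The list of eIF2alpha kinases and phosphatase had 3 of 7 genes higher and 1 lower after 8 h (median 0.08), then 3 higher with 2 lower after 24 h (0.14). Of all genes, 22.4% and 33.4% were called higher and 32.1% and 37.1% lower at these times. Eif2ak3, which encodes PERK, went from a mean of 9.66 to 17.3 FPKM at 8 h (0.78 ± 0.08) and 15.5 FPKM at 24 h (0.63 ± 0.08). Ppp1r15a, the stress-induced subunit that directs dephosphorylation of eIF2alpha, rose by 0.36 ± 0.07 and 0.78 ± 0.07, and its constitutive relative Ppp1r15b fell at 24 h (-0.45 ± 0.04). Eif2ak4, which encodes GCN2, rose at 8 h (0.35 ± 0.07).

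Of 23 other ATF4 partners and targets tested, 4 were higher and 14 lower after 8 h (median -0.34), then 6 higher with 12 lower after 24 h (-0.30), where 32.1% and 37.1% of all genes were called lower. The highest differences ran both ways. Nupr1, a stress-induced cofactor, went from a mean of 82.4 to 228 FPKM after 8 h (1.46 ± 0.05), reaching 293 FPKM after 24 h (1.82 ± 0.05), and Ddit4, an inhibitor of mTORC1 signalling, from 53.5 to 180.3 FPKM at 8 h (1.73 ± 0.08). Gdf15, a stress-induced cytokine, fell from 7.33 to 1.84 and 1.68 FPKM (-1.56 ± 0.15 and -1.64 ± 0.15). Herpud1, which acts in ER-associated degradation, fell from 94.5 to 34.4 FPKM at 24 h (-1.43 ± 0.05).

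Among 18 genes of folate one-carbon and glycine metabolism, 4 were higher and 11 lower after 8 h (median -0.28), then 2 higher with 10 lower after 24 h (-0.21), where 32.1% and 37.1% of all genes were called lower. Shmt1, the cytosolic counterpart of Shmt2, fell from a mean of 46.4 to 17.6 FPKM at 8 h (-1.35 ± 0.07) and 10.5 FPKM at 24 h (-2.04 ± 0.07). Mthfd2, the mitochondrial folate dehydrogenase, fell by -0.94 ± 0.07 at 8 h. Gldc, a subunit of the glycine cleavage system, went the other way, from 13.6 to 37.2 FPKM at 24 h (1.39 ± 0.06).

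Of 20 cytosolic tRNA synthetases, 2 were higher and 10 lower after 8 h (median -0.12), then 0 higher with 11 lower after 24 h (-0.15), beside 32.1% and 37.1% of all genes called lower and 22.4% and 33.4% called higher. Vars fell by -0.52 ± 0.06 and -1.06 ± 0.06, Farsb by -0.30 ± 0.04 and -0.55 ± 0.04, Mars by -0.24 ± 0.04 at 8 h and Wars by -0.40 ± 0.04 at 24 h. Of 11 NRF2 and glutathione genes, which bear on the same cysteine pool as Slc7a11 and Chac1, 2 were higher and 5 lower after 8 h (median -0.13), then 2 higher with 6 lower after 24 h (-0.53), beside the same shares of all genes. Gclc, the catalytic subunit of the first step of glutathione synthesis, fell from 132 to 40.9 and 30.2 FPKM (-1.69 ± 0.15 and -2.09 ± 0.15). Gss, the second step, fell by -0.45 ± 0.06 and -1.14 ± 0.06, and Nfe2l2, which encodes NRF2, by -0.76 ± 0.09 and -1.32 ± 0.09.

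In KD against control cells the ER list leaned upwards. Of 18 genes it had 7 higher and 2 lower in untreated cells (median 0.12), 15 higher with 0 lower after 8 h (0.27), then 9 higher with 0 lower after 24 h (0.15), where 10.6%, 19.3% and 16.8% of all genes were called higher. Edem1, which helps to clear misfolded glycoproteins, was higher by 0.39 ± 0.04, 0.60 ± 0.04 and 0.56 ± 0.04 at 0, 8 and 24 h, and Xbp1 by 0.39 ± 0.05, 0.49 ± 0.05 and 0.35 ± 0.05. Dnajc3 was higher at 8 h (0.50 ± 0.10) and Manf at 24 h (0.34 ± 0.04), while Dnajb9 was lower in untreated cells (-0.45 ± 0.10), a call lost without the first KD library (adjusted p = 0.108). The count of called genes in untreated cells was 1 in a fit of only the compared groups and 3 without either KD library, and at 24 h it was 5 in a fit of the compared groups or without the first control library.

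Of the eIF2alpha list, 1 gene was called at each time, and each time it was Eif2ak3, higher by 0.44 ± 0.08, 0.65 ± 0.08 and 0.61 ± 0.08 (list medians 0.05, 0.03 and -0.01). Over all genes, 19.7%, 35.8% and 28.3% were called at 0, 8 and 24 h, so that 1 of 7 lay below these shares. The call of Eif2ak3 in untreated cells was lost in a fit of only the compared groups. In untreated cells this call was lost without the first KD library (adjusted p = 0.0582), and the 24 h count was 3 without the first KD library of that time. Of 23 other ATF4 partners and targets, 8 were higher and 1 lower in untreated cells (median 0.17), 7 higher with 1 lower after 8 h (0.10), then 6 higher with 0 lower after 24 h (0.15), where 10.6%, 19.3% and 16.8% of all genes were called higher. Herpud1 was higher by 0.78 ± 0.09, 1.18 ± 0.09 and 1.06 ± 0.09 and Nupr1 by 0.67 ± 0.04, 0.76 ± 0.04 and 0.99 ± 0.04. Gdf15 was higher in untreated cells (0.70 ± 0.14), Sesn2, a sensor of leucine, at 8 h (0.34 ± 0.06) and Pck2, the mitochondrial PEP carboxykinase, at 24 h (0.41 ± 0.09). Leaving out 1 library moved the counts of called genes in this list from 9 to 3 (untreated, without the second KD library), from 8 to 5 (8 h, any of the 4) and from 6 to 12, 2 or 3 (24 h, without the first KD, the first control or the second control library). The call of Gdf15 was lost without the second KD (adjusted p = 0.0887) or the second control library (0.0589), and that of Pck2 without the first (0.0631) or the second (0.0627) control library.

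Of the 18 folate genes, 1 was higher and 0 lower in untreated cells (median -0.01), 2 higher with 7 lower after 8 h (-0.09), then 3 higher with 3 lower after 24 h (-0.06), where 9.09%, 16.5% and 11.5% of all genes were called lower. Shmt1 was lower in KD cells at 8 h, at a mean of 6.71 against 13.8 FPKM (-0.94 ± 0.08), and at 24 h (-0.55 ± 0.08). Mthfd1 (-0.39 ± 0.07) was lower at 8 h and Slc25a32, the mitochondrial folate carrier, at 24 h (-0.30 ± 0.09). Slc1a4, which carries serine and other neutral amino acids, was higher in untreated cells (0.41 ± 0.09) and at 24 h (0.30 ± 0.09). The count of 9 at 8 h was 4 or 5 when the second KD library or either control library was left out, and the count of 6 at 24 h was 1 or 2 without either control library. The single call in untreated cells, Slc1a4, was lost without either KD library, and without either control library the count there was 3. At 24 h the calls of Slc25a32 and Slc1a4 were lost without the second KD, the first control or the second control library (adjusted p = 0.091 to 0.172).

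The tRNA synthetases had 1 higher and 1 lower of 20 in untreated cells (median -0.03), 0 higher with 2 lower after 8 h (-0.05), then 3 higher with 0 lower after 24 h (0.07), which is a smaller share than the 19.7%, 35.8% and 28.3% of all genes called. Vars was lower in untreated cells (-0.27 ± 0.08) and at 8 h (-0.39 ± 0.08), together with Farsa at 8 h (-0.17 ± 0.06), while Wars was higher in untreated cells (0.25 ± 0.04). At 24 h Wars (0.19 ± 0.04), Sars (0.18 ± 0.06) and Hars (0.15 ± 0.04) were higher. These counts rested on single libraries. They were 0 without either KD library and 7 without the first control library in untreated cells, 1 without any of the 4 libraries of 8 h, and 8, 0 and 1 without the first KD, the first control and the second control library of 24 h.

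The NRF2 and glutathione list had 2 higher and 1 lower of 11 in untreated cells (median -0.03), 5 higher with 1 lower after 8 h (-0.05), then 4 higher with 1 lower after 24 h (0.00), so that at 0 and 8 h its median and the balance of its calls differed in sign. Of all genes, 10.6%, 19.3% and 16.8% were called higher. Gclc was higher by 0.36 ± 0.06, 0.34 ± 0.06 and 0.38 ± 0.06 and Gss by 0.35 ± 0.05, 0.43 ± 0.05 and 0.41 ± 0.05 at 0, 8 and 24 h, Gclm, the modifier subunit, by 0.54 ± 0.08 and 0.44 ± 0.08 at 8 and 24 h, and Keap1, which holds NRF2 in check, was lower in untreated cells (-0.17 ± 0.04). In untreated cells the calls of Gclc and Keap1 were lost without the first KD library (adjusted p = 0.0607 and 0.0831), that of Keap1 also without the second (0.135), and the list's count was 1 without the first.

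**Figure D4:**
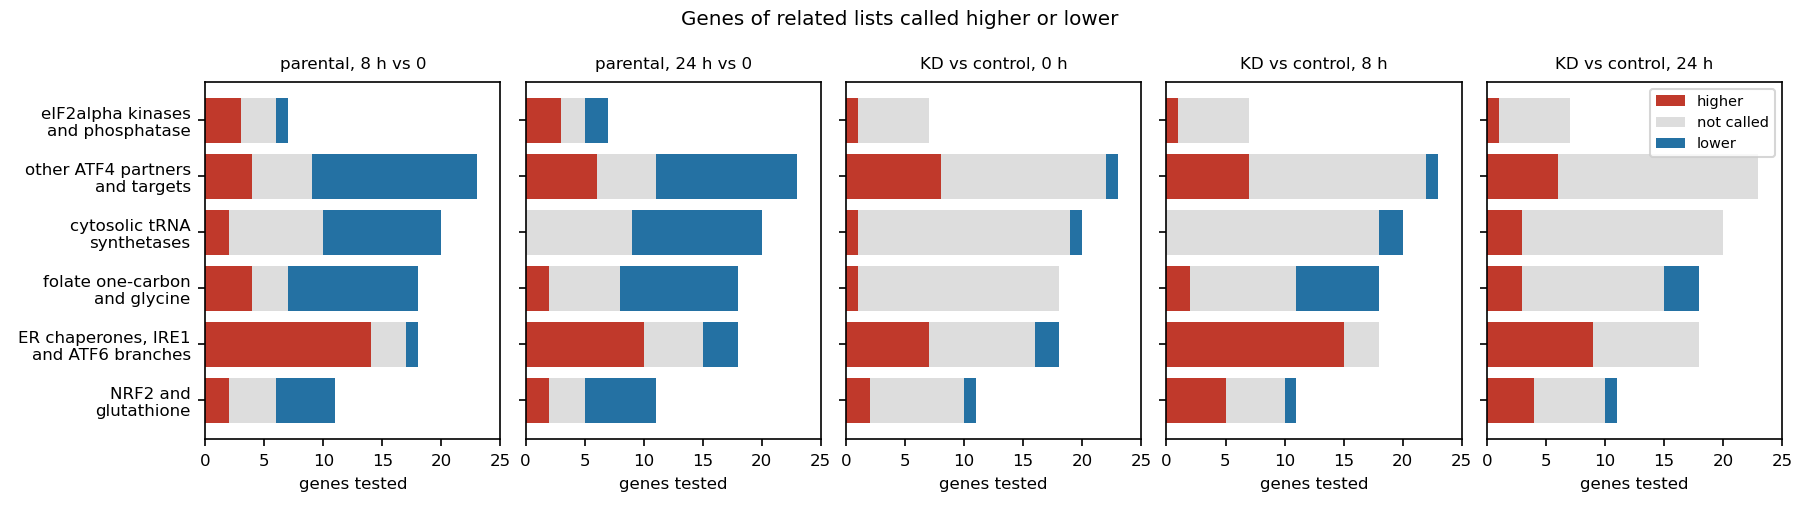
Number of tested genes (horizontal axis) of 6 related lists that were called higher (red), lower (blue) or not called (grey) in parental cells after TGF-β and in KD against control cells. The ER list has 14 of 18 genes higher in parental cells at 8 h and 15 of 18 higher in KD cells at 8 h, whereas the tRNA synthetases have 11 of 20 lower in parental cells at 24 h.

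Lamin B1 ChIP-seq peaks were set beside the 10 genes, from 2500 bp upstream of the annotated start to the 3′ end. With 1 library per time there is no replicate check. At 0, 8 and 24 h, 4, 6 and 4 members had a peak, and among expressed genes with a place in the annotation 33.6%, 56.5% and 44% had one (19.9%, 38.8% and 29.4% of all placed genes). The lists differed in length, with 4645, 10484 and 7083 peaks.

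Atf4 and Asns had a lamin B1 peak over the start site at all 3 times. At Atf4 the peak ran from -685 to 1077 bp around the start in untreated cells, from -271 to 1148 at 8 h and from -20 to 980 at 24 h. At Asns it ran from -479 to 700, from -400 to 673 and from -232 to 525 bp. Chac1 had one over its start at 0 and 8 h, Psph at 8 and 24 h, and Psat1 at its RefSeq starts at 0 and 8 h. Shmt2 had peaks within the gene at 8 h and Trib3 at 24 h, away from the start, and Ddit3, Phgdh and Slc7a11 had none at any time. The Asns peaks scored 57.5, 133 and 59.4 at 0, 8 and 24 h, and those of Atf4 104, 140 and 110. The lists began near 50 and had median scores of 69.8, 79.4 and 83.25, so that the Asns peaks of 0 and 24 h lay below the median.

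An ATAC-seq peak, a mark of open chromatin, lay within 500 bp of the annotated start of 6, 6 and 10 members at 0, 8 and 24 h. The share of expressed genes with such a peak was 56.3%, 46.1% and 84% (30.6%, 25% and 47.1% of all placed genes), and the peak list of 24 h was longer, with 33811 peaks against 9782 and 10340. Atf4, Ddit3, Trib3, Asns, Chac1 and Psph had a peak at all times, although that of Trib3 in untreated cells began 162 bp downstream of its RefSeq start. Phgdh, Slc7a11 and Shmt2 had a promoter peak at 24 h alone. At 8 h the ATAC peaks of Atf4 and Asns scored 57.1 and 56.4, below the list median of 73.9 and near its lowest score of 50.01.

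Psat1 depends on the start site used. Its annotated start on mm9 lies 22278 bp upstream of the first RefSeq start, and at the annotated start it had an ATAC peak at 24 h alone, whereas at the RefSeq starts a peak was present at all 3 times and spanned -588 to 663, -408 to 718 and -1059 to 1975 bp. Psat1 also overlaps a pseudogene, Gm3329, and Shmt2 overlaps Ndufa4l2 on the opposite strand. Psat1 RNA fell while the ATAC peak at its RefSeq starts was listed at every time, and Phgdh RNA fell while its promoter peak was listed at 24 h alone.

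**Figure D5:**
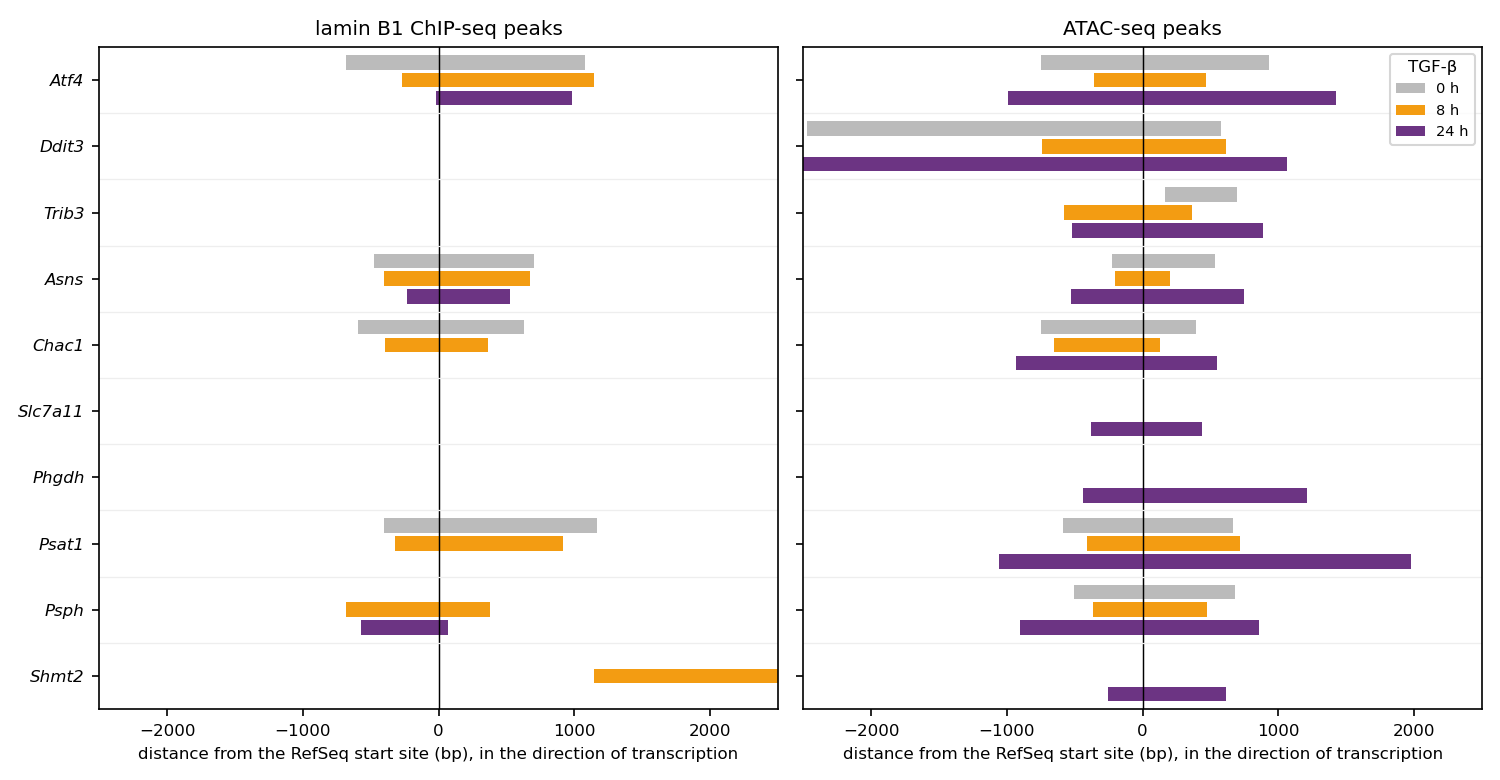
Lamin B1 ChIP-seq (left) and ATAC-seq (right) peaks within 2500 bp of the RefSeq start site of each of the 10 genes, as bars from the first to the last base of the peak against distance from the start in the direction of transcription (Psat1 at its upstream RefSeq start), coloured by hours of TGF-β. Atf4 and Asns carry a bar over the start in both assays at all 3 times, and Phgdh, Slc7a11 and Shmt2 carry an ATAC bar over the start at 24 h alone.

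The members also differed in how their levels moved over the 12 libraries of infected cells, which share lines and times. Phgdh and Psat1 moved most alike, with Pearson's r = 0.996, and r = 0.998 over the 6 parental libraries. Ddit3 and Trib3 moved against each other (r = -0.877 and -0.697). Outside the 10 genes, the gene closest to Psat1 was Dck, a deoxynucleoside kinase (r = 0.998 and 0.973 over the 12 and 6 libraries), and to Phgdh it was Haus1, of the augmin complex of the spindle (0.997 and 0.989). The closest to Shmt2 was C1qbp (0.987 and 0.967), to Psph Sgms1 (0.981 and 0.910), to Asns the glycyl-tRNA synthetase gene Gars (0.958 and 0.815) and to Atf4 Gtf2e2 (0.956 and 0.969).

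Ddit3 was closest to Cmc1 (0.995 and 0.663), Trib3 to Eif2b2, a subunit of the factor that eIF2alpha phosphorylation inhibits (0.983 and 0.770), Chac1 to the basement membrane collagen gene Col4a2 (0.978 and 0.825), and Slc7a11 to the isoleucyl-tRNA synthetase gene Iars (0.880 and 0.680).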

How the data were processed

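RNA-seq of NMuMG cells (6 parental and 12 shRNA libraries) was deposited as FPKM values per gene. According to the submitters' processing notes the authors used Bowtie, TopHat and Cufflinks with mm9. Versions, annotation and the strand setting of the FPKM estimates are not given in the sources used here. The study's methods state 2 biological replicates. The tables carry no header line. Columns were assigned from the column order spelled out in each table's own name, which the labels repeat, and the parental columns carry no replicate number.

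From these values, the log2(FPKM + 1) scale was modelled in R 4.3.3 by limma 3.58.1 (eBayes with trend, all libraries of a table in 1 fit, no block), keeping genes that reached 1 FPKM in 2 or more libraries, with Benjamini-Hochberg adjustment. The fit was tested on simulated data. MACS peak lists on mm9 were deposited by the authors with a peak score per peak, from pooled parallel ChIPs, and an overlap of 1 bp counted. The starts came from GENCODE M1 and the promoters from RefSeq. Chromatin contact data were not analysed here.

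Named were all 10 members, Lmnb1, up to 3 called genes per list with the largest difference and a mean of at least 5 FPKM, and the gene with the highest correlation to each member, except 1 gene that met this rule and is not reported here. The members and the lists were chosen with earlier results of these data known. Alternatives changed the pseudocount (0.1), the low-value filter, the scaling, the groups fitted, the libraries, the replicate block and the peak windows.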

Additional observations from a re-analysis of the deposited data

Results flagged for a closer look

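The genes named from the related lists were picked for large differences in these same data, KD against control among them. Of them, 4 responded differently to TGF-β in KD and control cells by the interaction test in limma, with 2 libraries per group. Over all genes, 4.06% were called at 8 h and 4.72% at 24 h. Of the whole lists, 2 of 18 folate, 2 of 18 ER and 1 of 11 NRF2 genes were called at 8 h. At 24 h it was 2 of 23 other ATF4 partners and targets, 1 of 18 folate and 1 of 11 NRF2 genes. At 8 h, Shmt1 fell further in KD cells, with a difference between the responses of -0.92 (log2 scale, adjusted p = 0.00891), and it did so at 24 h as well (-0.53, adjusted p = 0.0387). Shmt1 went from a mean of 43.1 to 6.71 and 4.64 FPKM in KD cells and from 43.9 to 13.8 and 7.27 FPKM in control cells. Gclm rose further in KD cells at 8 h (0.58, adjusted p = 0.0370). At 24 h the responses of Nupr1 (0.32, adjusted p = 0.0172) and Pck2 (0.54, adjusted p = 0.0499) were the higher ones in KD cells. Nupr1 reached 394 FPKM there against 198 FPKM in control cells.

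These calls depended on single libraries, as the number of all genes called did (465 at 8 h and 540 at 24 h, and 25 to 1486 and 85 to 2696 when 1 library was left out). Shmt1 at 8 h lost its call without the second untreated KD library (adjusted p = 0.0591) or without the first (0.0504) or the second (0.0596) control library of 8 h. Gclm lost it without any 1 of the 4 KD libraries of 0 and 8 h, of the 2 control libraries of 8 h, or the first untreated control library (0.0823 to 0.152). At 24 h, Nupr1, Shmt1 and Pck2 lost theirs without either untreated KD library or either control library of 24 h (0.0624 to 0.171), Shmt1 and Pck2 also without the first untreated control library (0.0654 and 0.0761), and Pck2 also without the second (0.0658).

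Trib3 at 24 h lay on opposite sides of its untreated level in parental and infected cells, although the parental difference was not called. Both parental libraries of 24 h lay below both untreated ones (-0.22, adjusted p = 0.1 in limma). In control cells (0.39) and in KD cells (0.50) both lay above, with a call. The tables were normalized separately, and this difference was not tested.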

How the results depend on the processing

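Of 1446 values of member differences under alternative settings, 1380 stayed on their side of the threshold, 43 lost a call and 23 gained one. The sign changed in 61, all of them of differences without a call, and in 0 of the differences that were called. The counts of members called after TGF-β stayed within 1.5 times the reported count in all 3 lines, a bound that 10 members could pass only downwards. In KD cells at 24 h the count of 8 became 6 with an equal median. In parental cells at 24 h the count of 8 became 10 in a fit of only the compared groups. In KD against control cells, the 1 member called in untreated cells became 0 in a fit of only the compared groups and 0 to 2 when 1 library was left out. The 6 called at 8 h became 2 to 4 when 1 library was left out, and the 3 called at 24 h became 1 without the filter on low values, under quantile normalization and with an equal median, and 1 to 3 when 1 library was left out. For the difference between the responses, the count of 0 became 0 to 1 at 8 h and 0 to 2 at 24 h when 1 library was left out. With peaks at or above the median score, 2 members in place of 4 had a lamin B1 peak at 24 h and 3 in place of 6 an ATAC peak at 8 h. With an equal median the falls of Asns were -0.23 in control cells at 24 h and -0.22 in KD cells at 8 h, and without the first KD library of 24 h the fall of Shmt2 there was -0.32. The cause was not tested.

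Over all genes, a fit of only the compared groups moved the calls between KD and control cells from 2254 to 732 in untreated cells and from 3241 to 710 at 24 h, those of the difference between responses from 465 to 714 at 8 h and from 540 to 88 at 24 h, and those of KD cells at 24 h against 8 h from 5933 to 3701. When 1 library was left out, KD and control cells differed in 650 to 2497 genes untreated, 2330 to 2432 at 8 h (4104 with all libraries) and 1199 to 4476 at 24 h. In the fit of only the compared groups the fall of Lmnb1 in KD cells at 24 h had an adjusted p of 0.0538. With 2 libraries a group, a fit that leaves 1 out assumes that the lone library varies like the other groups. In the RefSeq promoter windows, added after the data were seen, lamin B1 peaks were found at 4, 5 and 3 members and ATAC peaks at 6, 7 and 10, at 0, 8 and 24 h. The absolute depth is unknown, which limits what can be said of Slc7a11.

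Whether the replicate numbers of the shRNA libraries pair the samples is not stated in the sources used here. With 1 replicate difference per group, correlations between groups cannot decide it. Of 15 pairs of groups, same-numbered libraries deviated together with a correlation over 0.1 in 2 (range -0.135 to 0.368, median 0.0202). The highest was that of control with KD cells at 24 h, and the other, 0.184, that of KD cells untreated with KD cells at 24 h. With the replicate block, 3 members in place of 1 were called in untreated KD against control cells and 4 in place of 3 at 24 h, and 284 genes in place of 465 for the difference between responses at 8 h. No paired analysis was possible for the parental table because its columns carry no replicate number.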
